A study of Mus musculus with 2 samples.

Results

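The transcripts described here are those of 10 genes of the Notch pathway in single cells of mouse liver: the receptors Notch1, Notch2 and Notch3, the ligands Jag1 and Jag2, the DNA-binding protein Rbpj, the target genes Hes1, Hey1 and Nrarp, and Lfng, a glycosyltransferase that modifies the receptors and is itself a target in some tissues. They were taken by gene symbol from the 55415 genes of the deposited count data, and all 10 were found. Notch signalling passes between touching cells. A ligand on one cell binds a receptor on its neighbour, the receptor is cut by an ADAM protease and then by gamma-secretase, and the freed intracellular part joins Rbpj and a Mastermind-like coactivator (Maml) on target promoters. In the liver the pathway is best known for bile duct formation, which requires Jag1 and Notch2, and Sox9 is among the genes that it acts on there.

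Cells labelled as biliary epithelial cells, which line the bile ducts, were measured in 1 library from a mouse liver labelled Sox9cKO and 1 library labelled Sox9con, the control. Sox9 is a transcription factor of these cells. The strain, the age, the driver of the deletion and the number of animals in each library are not given in the sources used here. Fixed whole cells were barcoded by split pooling, a method that labels the RNA inside cells over several rounds of wells, and transcripts were counted by unique molecular identifiers (UMIs). The cKO-labelled library held 2740 cells with 14856321 UMIs and the control-labelled library 3622 cells with 12811243 UMIs, so that the median cell was 1.59 times as deep in the former, at 5020 against 3161 UMIs. The libraries shared 0 cell barcodes. Each lay in first-round wells of its own, 5 and 4, so that a library, its wells and its genotype cannot be told apart.

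After filtering, 2712 and 3505 cells fell into 10 clusters, computed without Sox9, the 10 genes and 48 other pathway genes. Markers are counted here where they reached 50 UMIs per 1000000 UMIs of a cluster, both libraries pooled. Cluster 9, with 85 and 123 cells, was endothelial-like, with 14 of 15 endothelial markers and 9 of 14 biliary markers. Stab2, Kdr, Ptprb and Cdh5 were among its leading genes. Cluster 5 (17 and 11 cells, led by Gnat3, Fyb and Rgs13) was left unnamed. The other 8 clusters form the biliary fraction of 2610 and 3371 cells. Each of them held 12 or 13 of the 14 biliary markers and at most 1 of the 15 endothelial markers. Among the 10 leading genes, clusters 2, 4 and 7 had 1 marker of another class each (Dcn, Mup20 and Upk3b) and no biliary marker, so that the name rests on the detected markers and the labels. Sox9 itself had 122 CPM (UMIs per 1000000 UMIs of the class) in cKO-labelled against 145 CPM in control-labelled biliary cells, a log2 ratio of -0.26 with a 95% interval of -0.35 to -0.16, and was higher in the cKO-labelled well in 10 of 20 well pairs. Sox9 counts therefore do not clearly bear out the label, and the libraries are called by their labels throughout. With 1 library per genotype there is no test: every interval below is a 95% interval that covers counting error only, and the wells show technical spread.

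The stretches of DNA before the start sites of 3 of the genes are shown. Jag1 and Nrarp were among the genes higher in the cKO-labelled library in every well pair. Lfng was the one gene with the longer of the Rbpj motifs searched. Rbpj was also higher in every well pair, and its sequence is not shown. RefSeq (GRCm38.p6) held a promoter entry for 8 of the 10 genes, and Hes1 and Hey1 had none. The 250 bases before the start site were searched on both strands for TGGGAA, the core bound by Rbpj, for the longer GTGGGAA, which contains it, and for ACAAT, the core bound by SOX proteins. Capitals mark matches in either orientation (ACAAT or ATTGT for Nrarp and Jag1, TGGGAA or TTCCCA for Lfng), and all are written 5′ to 3′ on the strand of the gene.
Nrarp (plus strand, chr2:25180508-25180757): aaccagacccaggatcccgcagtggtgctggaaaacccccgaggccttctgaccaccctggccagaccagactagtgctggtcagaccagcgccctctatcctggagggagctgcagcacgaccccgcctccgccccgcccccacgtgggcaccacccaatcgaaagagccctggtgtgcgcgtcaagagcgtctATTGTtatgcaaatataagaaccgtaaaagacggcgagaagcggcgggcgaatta
Jag1 (minus strand, chr2:137116521-137116770): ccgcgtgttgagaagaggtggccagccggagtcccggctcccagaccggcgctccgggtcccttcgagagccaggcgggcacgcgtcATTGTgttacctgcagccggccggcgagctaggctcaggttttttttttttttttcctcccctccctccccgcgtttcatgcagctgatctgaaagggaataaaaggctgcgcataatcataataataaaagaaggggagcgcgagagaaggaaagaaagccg
Lfng (plus strand, chr5:140607091-140607340): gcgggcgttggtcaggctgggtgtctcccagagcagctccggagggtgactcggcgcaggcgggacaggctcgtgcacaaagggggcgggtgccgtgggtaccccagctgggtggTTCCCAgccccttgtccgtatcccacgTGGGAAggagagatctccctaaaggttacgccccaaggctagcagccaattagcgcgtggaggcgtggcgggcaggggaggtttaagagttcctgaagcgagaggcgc
The SOX core began 55 bases before the Nrarp start and 163 bases before the Jag1 start, and 27.7% of 32851 mouse promoters hold it. None of the other genes with an entry held it, Rbpj included. The Rbpj core was matched 2 times before Lfng, and also in both overlapping windows listed for Rbpj itself, against 21.6% of promoters with at least 1 match. The longer form was matched before Lfng alone of the 8 genes, against 5.42% of promoters. These matches describe the letters only.

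The biliary fraction carried Notch2 as its main receptor and Jag1 as its main ligand of this group. Levels can be compared between genes only per length, here as CPM per kilobase of exon. On that scale the order in the cKO-labelled biliary fraction was Hes1 (25.2), Jag1 (17.1), Notch2 (16.4), Rbpj (8.06), Nrarp (3.47), Notch1 (1.32), Notch3 (0.515), Hey1 (0.446), Jag2 (0.339) and Lfng (0.166). In the control-labelled fraction it was Hes1 (44.2), Notch2 (15.7), Jag1 (8.93), Rbpj (6.13), Notch1 (2.13), Nrarp (1.11), Notch3 (0.731), Hey1 (0.604), Lfng (0.328) and Jag2 (0.319). Hes1, a repressor that Notch induces in many tissues, led both orders, and Notch2 exceeded Notch1 and Notch3 in both. Jag1 and Notch2 in the former did not differ beyond counting error, nor did neighbours among the 4 lowest genes of either order. Lengths come from the GRCm38 annotation, and whether intronic reads were counted is not stated, which matters most for long genes such as Notch2 and Rbpj.

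Endothelial-like cells had the reverse receptor pattern, with much Notch1 and little Notch2. Notch1 stood at 511 CPM (428 to 605) there against 18.8 CPM (16.6 to 21.2) in the biliary fraction of the cKO-labelled library, 27.2-fold higher. The control-labelled library had 358 CPM (300.2 to 423) against 30.3 CPM (27.3 to 33.6), 11.8-fold higher. A Notch1 UMI was found in 63.5% of 85 and 52.0% of 123 endothelial-like cells, and in 8.77% and 9.23% of biliary cells, at median depths of 2399 and 2337 against 5125.5 and 3226 UMIs. The class with more Notch1 was thus the shallower one, and at 2000 UMIs per cell the shares were 53.6% and 53.9% against 3.56% and 5.31%.

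Notch2 went the other way, at 30.5 CPM (13.2 to 60.1) in endothelial-like against 177 CPM (170 to 184) in biliary cells of the cKO-labelled library and 47.4 CPM (28.1 to 74.9) against 169 CPM (162 to 176) in the control-labelled one. These are 5.79-fold and 3.56-fold lower values from 8 and 18 UMIs, and in cells thinned to 2000 UMIs the log2 ratio of the cKO-labelled library moved from -2.53 to -4.37. Biliary RNA also reached the endothelial-like cells: 54 of 85 and 81 of 123 held a UMI of Epcam, Krt7, Krt8, Krt18, Krt19 or Spp1, and the 14 biliary markers summed to 15.7% and 16.6% of their biliary level there. Notch2 stood at 17.3% and 28.1% of its biliary level, close to the marker sum in the cKO-labelled library, and whether endothelial-like cells carry Notch2 of their own was not tested. In the opposite direction the 15 endothelial markers summed to 0.266% and 0.351% of their endothelial level in biliary cells. Notch1 stood at 3.68% and 8.47% of its endothelial level there, above the share of those markers, and the part of carried-over endothelial RNA in it was not tested.

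Hes1 was also higher in endothelial-like cells, at 236 CPM (181 to 303) against 51.3 CPM (47.7 to 55.2) in the cKO-labelled library and 247 CPM (199.9 to 303) against 90.0 CPM (84.7 to 95.5) in the control-labelled one, 4.61-fold and 2.75-fold. The other targets were sparse, and of these Nrarp and Lfng were higher there in both libraries. Nrarp, which encodes a feedback inhibitor of the receptor's intracellular part, had 9 endothelial-like UMIs in each library (34.3 and 23.7 CPM) against 8.95 and 2.88 CPM in biliary cells. Lfng had 7 in each (26.7 and 18.4 CPM) against 0.416 and 0.822 CPM. Hey1, a relative of Hes1 with known roles in vessels, had 6 UMIs in endothelial-like cells of the cKO-labelled library (22.9 CPM) and 0 in the other, where 3 counts would be 7.89 CPM.

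Jag1 and Rbpj levels differed less between the classes, and as reported not in one direction. Jag1 was 2.61-fold lower in endothelial-like cells of the cKO-labelled library (38.1 against 99.5 CPM, 10 UMIs). In the control-labelled library it was 60.5 against 52.0 CPM, but its 23 UMIs lay in 6 cells, and the log2 ratio moved from 0.22 to -3.82 once the 5% of cells with the highest doublet score were removed. Jag1 was also at least 2-fold lower in both libraries in thinned cells and without endothelial-like cells that held a biliary marker. With a stricter cell filter its control-labelled log2 ratio was 0.45. Rbpj stood at 64.8 against 103 CPM and 108 against 78.2 CPM, and neither difference exceeded counting error. Jag2 had 3 and 2 endothelial-like UMIs and Notch3 had 0 and 1, too few for a direction. With a minimum of 20 endothelial-like UMIs over both libraries or 200 biliary UMIs, 5 of the 10 genes could be compared in full. Of these 5, Notch1 and Hes1 were at least 2-fold higher in both libraries, as were 12.9% of 9789 genes, and Notch2 at least 2-fold lower, as were 19.6%.

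**Figure D1:**
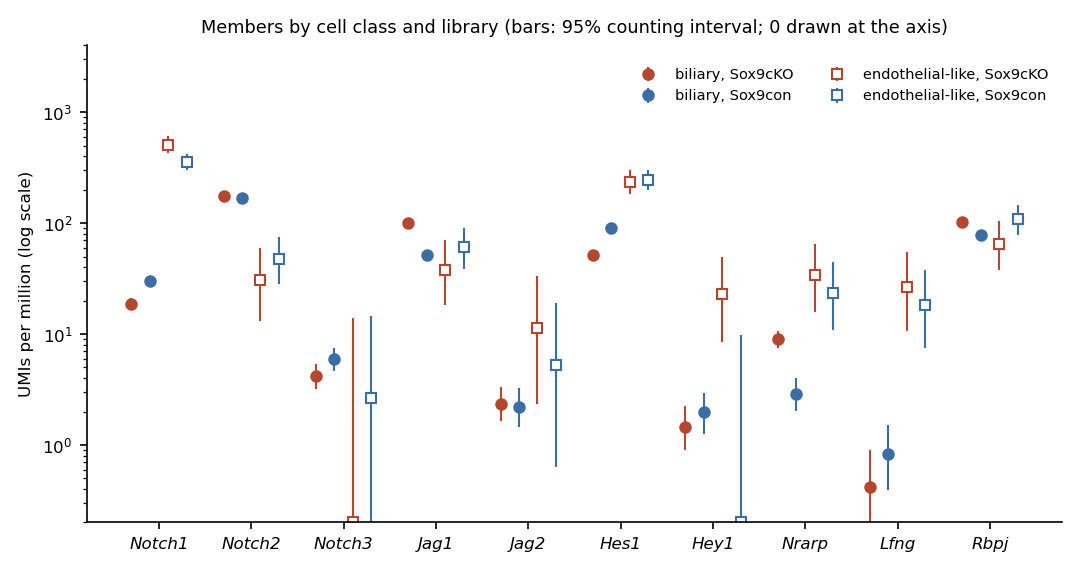
CPM (log scale) of the 10 genes in biliary cells (filled circles) and endothelial-like cells (open squares) of the cKO-labelled (red) and control-labelled (blue) library, with 95% counting intervals and values of 0 drawn at the lower axis. Notch1 sits at 511 and 358 CPM in endothelial-like cells against 18.8 and 30.3 in biliary cells, and Notch2 is the receptor with the order turned.

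Among the other pathway genes, 29 of 48 could be compared between the classes and 6 were at least 2-fold higher in endothelial-like cells of both libraries and 3 lower, against 12.9% and 19.6% of all genes. Dll4, the ligand typical of endothelium, had 99.2 and 97.4 CPM there against 0.486 and 0.739 CPM in biliary cells. With 7 and 9 biliary UMIs it entered the comparison only through the class where it is high, and its place in the count is no result. The coactivator Maml3 had 572 and 468 against 188 and 197 CPM. The others were Numb (587 and 571 against 251 and 258 CPM), an adaptor that limits Notch signalling, and Mib1 (355 and 316 against 172 and 148 CPM), a ubiquitin ligase that activates ligands. Psen2 (38.1 and 42.1 against 10.9 and 14.6 CPM), a catalytic subunit of gamma-secretase, and Dtx3l (45.8 and 92.1 against 22.3 and 22.6 CPM), a ubiquitin ligase, completed the 6. Neurl1a, Dtx1 and Dtx4 counted as lower, but with 0 or 1 endothelial-like UMI in each library, which is under the floor of 3 counts, so that no fold is given. They entered only through the biliary class.

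Between the libraries, the biliary fraction labelled Sox9cKO had more Jag1, Rbpj and Nrarp and less Hes1 and Notch1 than the control-labelled fraction, while Notch2 hardly differed. No gene of the 10 was 2-fold apart among the 5 with at least 200 UMIs over both libraries, where 2.22% of 9336 genes were at least 2-fold higher and 1.77% at least 2-fold lower. Jag1 and Rbpj were higher in all 20 pairs of a cKO-labelled and a control-labelled well, as were 7.65% of the genes, and Hes1 was lower in all 20, as were 8.23%. Jag1 was as far from a ratio of 1 as the outermost 4.79% of these genes, Hes1 as the outermost 7.55%, Notch1 11.0%, Rbpj 29.4% and Notch2 83.9%.

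Jag1 is the ligand whose loss of function causes bile duct paucity in Alagille syndrome. Its level in the wells of the cKO-labelled library was 90.5 CPM in A11, 106 in A12, 100.5 in B1, 102 in B2 and 93.7 in B3. In the control-labelled wells it was 57.4 CPM in D9, 39.5 in D10, 54.6 in D11 and 56.1 in D12. The lowest cKO-labelled well was thus over the highest control-labelled well. Summed over wells Jag1 had 99.5 CPM (94.5 to 104.8) against 52.0 (48.0 to 56.2), a log2 ratio of 0.94 (0.80 to 1.07), and it was higher in 8 of 8 sublibraries, sets of cells sequenced apart that each hold both libraries. It was seen in 29.7% of cKO-labelled and 14.1% of control-labelled biliary cells, and in 14.1% and 8.81% at 2000 UMIs per cell. Jag2 had 34 and 27 UMIs in all (2.36 and 2.22 CPM), with no difference beyond counting error.

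Rbpj, which every Notch receptor needs to act on DNA, showed a smaller difference with no overlap of wells. It had 113 CPM in A11, 103 in A12, 93.1 in B1, 97.9 in B2 and 109 in B3. The control-labelled wells had 74.0 CPM in D9, 80.0 in D10, 80.9 in D11 and 79.8 in D12. The log2 ratio was 0.39 (0.28 to 0.51), from 103 against 78.2 CPM. At 2000 UMIs per cell, Rbpj was found in 16.2% and 14.3% of biliary cells. Its locus is overlapped by 2 antisense genes, and whether the counting used strand is not stated.

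Hes1 was the target with the most UMIs, and it was lower in the cKO-labelled library. The cKO-labelled wells had 59.9 CPM (A11), 42.0 (A12), 55.4 (B1), 39.4 (B2) and 65.2 (B3). The control-labelled wells had 74.3 CPM (D9), 108 (D10), 83.7 (D11) and 96.3 (D12). No well of one library reached the other's range. Its log2 ratio was -0.81 (-0.95 to -0.67), from 51.3 against 90.0 CPM, and it was higher in 0 of 8 sublibraries. At 2000 UMIs per cell it was detected in 8.46% of cKO-labelled and 12.5% of control-labelled biliary cells.

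Hes1 is also induced by stimuli other than Notch, so immediate early genes, which respond within minutes to stress or growth signals and to cell isolation, were set beside it. The list of 9 (Fos, Fosb, Jun, Junb, Egr1, Atf3, Dusp1, Ier2 and Zfp36) was chosen after the Hes1 values were seen. Summed, it came to 3268 CPM in cKO-labelled against 3794 CPM in control-labelled biliary cells, over overlapping ranges of wells, 2824 to 3914 and 3110 to 4459 CPM. The 9 genes were not alike: Zfp36 (log2 ratio -0.86) and Ier2 (-0.84) were as far down as Hes1, Junb was at -0.50, and Dusp1 at 0.35 was above the control-labelled level. Over 14 sums of at least 50 biliary cells of one cluster and library, Hes1 and the list had a Pearson correlation of 0.71 and a Spearman correlation of 0.77, a description over points that share libraries and depth. The part of these genes in the Hes1 difference was not tested.

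Nrarp went against Hes1. Its wells had 14.1 CPM (A11), 7.04 (A12), 5.54 (B1), 7.40 (B2) and 12.4 (B3) in the cKO-labelled library, and 1.79 (D9), 3.21 (D10), 3.29 (D11) and 3.63 (D12) in the control-labelled one. All of the former were higher. With 129 against 35 UMIs, 8.95 against 2.88 CPM, the log2 ratio was 1.64 (1.09 to 2.22). The gene missed the minimum of 200 UMIs and is not counted with the 5 above. The 2 remaining targets were at the edge of detection, Hey1 with 21 and 24 UMIs (1.46 and 1.97 CPM) and Lfng with 6 and 10 (0.416 and 0.822 CPM), and did not differ beyond counting error.

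The receptors differed in how even the wells were. Notch1 had 11.8, 24.3, 15.1, 17.3 and 21.6 CPM in wells A11 to B3 and 32.8, 23.8, 23.99 and 38.3 CPM in D9 to D12. The control-labelled wells were higher in 18 of 20 pairs, and A12 overlapped D10 and D11. The log2 ratio was -0.69 (-0.92 to -0.46). Notch2 had 124, 189.9, 159.6, 216 and 175 CPM against 238, 111, 118 and 175 CPM, and D9 was the highest and D10 the lowest of all 9 wells. Its log2 ratio was 0.07 (-0.02 to 0.15), and leaving out D9 gave 0.37 and leaving out D10 -0.09. Notch3 had 60 and 72 UMIs, or 4.16 CPM (3.18 to 5.36) and 5.92 (4.63 to 7.45), and did not differ beyond counting error.

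**Figure D2:**
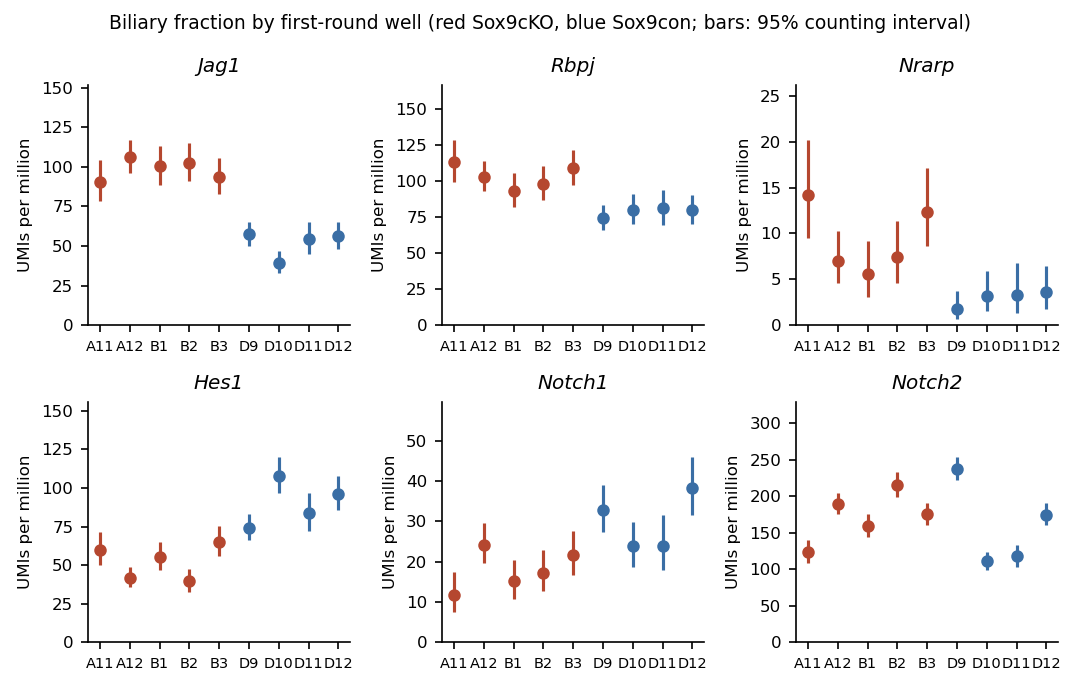
CPM in the biliary fraction of each first-round well, 5 of the cKO-labelled (red) and 4 of the control-labelled (blue) library, with 95% counting intervals. Wells of the 2 libraries are apart for Jag1, Rbpj, Nrarp and Hes1 and overlap for Notch1 and Notch2.

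The difference between libraries was tied in part to which clusters each library filled. Clusters 0 and 2 were almost all cKO-labelled (706 of 710 and 527 of 535 cells), and clusters 7 and 8 mostly control-labelled (1228 of 1340 and 915 of 979). Cluster 0, led by Ces1c, Ptgs2 and Slit3, held 77 of the 129 Nrarp UMIs of its library (59.7%), at 18.7 CPM (14.8 to 23.4) against 5.05 in the rest of the fraction. Cluster 2, led by Hp, Serpina1b and Adamtsl1, held 46.5% of the Jag1 UMIs, at 193 CPM (178 to 208) against 70.1 in the rest. The same cluster held 48.0% of the cKO-labelled Hes1 UMIs, at 103 CPM (92.2 to 114) against 35.1 in the rest. Cluster 8, led by Adgrv1, Ctnna2 and Dcx, held 44.7% of the control-labelled Notch1 UMIs, at 51.1 CPM (43.6 to 59.5), and 46.3% of the Hes1 UMIs, at 157 CPM (144 to 171). It also held 39.3% of the control-labelled Jag1 UMIs, at 77.1 CPM (67.8 to 87.3) against 42.9 in the rest. Hey1 was sparse, but cluster 2 held 12 of its 21 cKO-labelled UMIs and cluster 8 held 17 of its 24 control-labelled UMIs.

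At an equal mix of clusters (the Mantel-Haenszel ratio), the log2 ratio of Hes1 was -0.71 (-0.93 to -0.48) and that of Jag1 0.61 (0.39 to 0.84). Rbpj was at 0.20 (0.02 to 0.37) and Notch2 at 0.15 (0.03 to 0.27). Notch1 came to 0.01 (-0.34 to 0.35) and Nrarp to 0.13 (-0.79 to 1.05), with intervals that include 0. For Nrarp that interval is wide: clusters 0 and 2 held 77 and 31 of its 129 cKO-labelled UMIs and have only 4 and 8 control-labelled cells. In cluster 4 Nrarp had 5 against 0 UMIs, its one shared cluster with a difference beyond counting error. Over all kept cells, with no class set apart, Jag1 had 97.9 against 52.1 CPM, Hes1 54.5 against 94.5 and Notch1 27.5 against 40.1. Summed over the 6 clusters with at least 50 cells of each library, a subset chosen after the data were seen, Hes1 was further apart, at -1.17, and Jag1 closer, at 0.18.

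Within those 6 clusters, Hes1 was lower in cKO-labelled cells beyond counting error in 4 and Jag1 higher in 3. Hes1 stood at 75.1 against 158 CPM in cluster 1, 29.5 against 117 in cluster 4, 40.4 against 63.9 in cluster 6 and 56.0 against 157 in cluster 8. The summed immediate early genes in those clusters were 5864 against 7299, 1475 against 2079, 2047 against 1824 and 8932 against 7646 CPM. In the remaining shared clusters, 3 and 7, Hes1 stood at 35.4 against 38.5 and 70.8 against 51.7 CPM. The summed list stood there at 1834 against 1791 and 3034 against 2181 CPM. The part of these genes in the Hes1 values within clusters was not tested. Jag1 stood at 120.2 against 68.3 CPM in cluster 1, 59.9 against 45.3 in cluster 3 and 124 against 31.5 in cluster 4. Cluster 4, led by Slc28a2, Ltf and Anxa10, thus had the widest gap of the 6 for both genes, with log2 ratios of -1.98 for Hes1 and 1.97 for Jag1 from 110 and 192 cells.

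Notch3, a receptor best known from smooth muscle and pericytes, was highest in cluster 1 among sums of at least 50 biliary cells in both libraries. Cluster 1 was led by Gm46401, Tll2 and Fanci, with Scin, Dnah12 and Mmp25 also among its leading genes. It reached 50 CPM for 3 proliferation markers, as did the endothelial-like cluster 9, and no other cluster of the biliary fraction did so for any. Cluster 1 held 61 cKO-labelled and 192 control-labelled cells, 2.34% and 5.70% of the biliary fraction, and 36.7% and 47.2% of its Notch3 UMIs. Its level was 82.6 CPM (51.8 to 125) and 52.8 CPM (36.6 to 73.8), which is 30.8-fold and 16.0-fold over the rest of the fraction. Of 11030 genes, 5.61% were at least 2-fold higher there in both libraries, and 25 were as far up as Notch3 in both. Cluster 1 was chosen for its Notch3 level, so that these values describe it. Cluster 2 held 31.7% of the cKO-labelled Notch3 UMIs, at 5.49 CPM in 527 cells, and its 8 control-labelled cells held 5 UMIs in 2 cells. A UMI of Notch3 was found in 26.2% and 13.02% of the cells of cluster 1.

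Of 13 mesenchymal and mural markers, 11 had 0 UMIs in the cKO-labelled cells of cluster 1 and 9 had at most 1 in the control-labelled cells. Pdgfrb and Col1a1 had 0 in both libraries, and Col3a1 had 0 and 1. The exceptions in both were Reln (124 and 209.7 CPM against 235 and 199 in the rest of the fraction) and Rgs5, a pericyte marker (60.1 and 224 CPM against 86.0 and 107). Summed, the list stood at 184 CPM against 345 in the rest in the cKO-labelled library and at 446 against 330.4 in the control-labelled one, and its part in the Notch3 level was not tested. Over the whole fraction, 5 and 4 cells held at least 4 of the 13 markers, and those cells held 3 and 0 of the 60 and 72 Notch3 UMIs. Hes1 in cluster 1 stood at 75.1 against 50.9 CPM in the rest (log2 ratio 0.56, -0.16 to 1.20) in the cKO-labelled library and 158 against 86.1 (0.88, 0.57 to 1.17) in the other. Notch1 stood at 48.8 against 18.2 CPM (1.42, 0.49 to 2.22) and 34.2 against 30.1 (0.18, -0.51 to 0.80). Hes1 and Notch1 were thus each above the rest beyond counting error in 1 library, and not the same one. Notch2 was so in both libraries, at 259 against 175 CPM (0.57, 0.20 to 0.91) in the cKO-labelled one and 236 against 165 (0.52, 0.27 to 0.76) in the other.

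**Figure D3:**
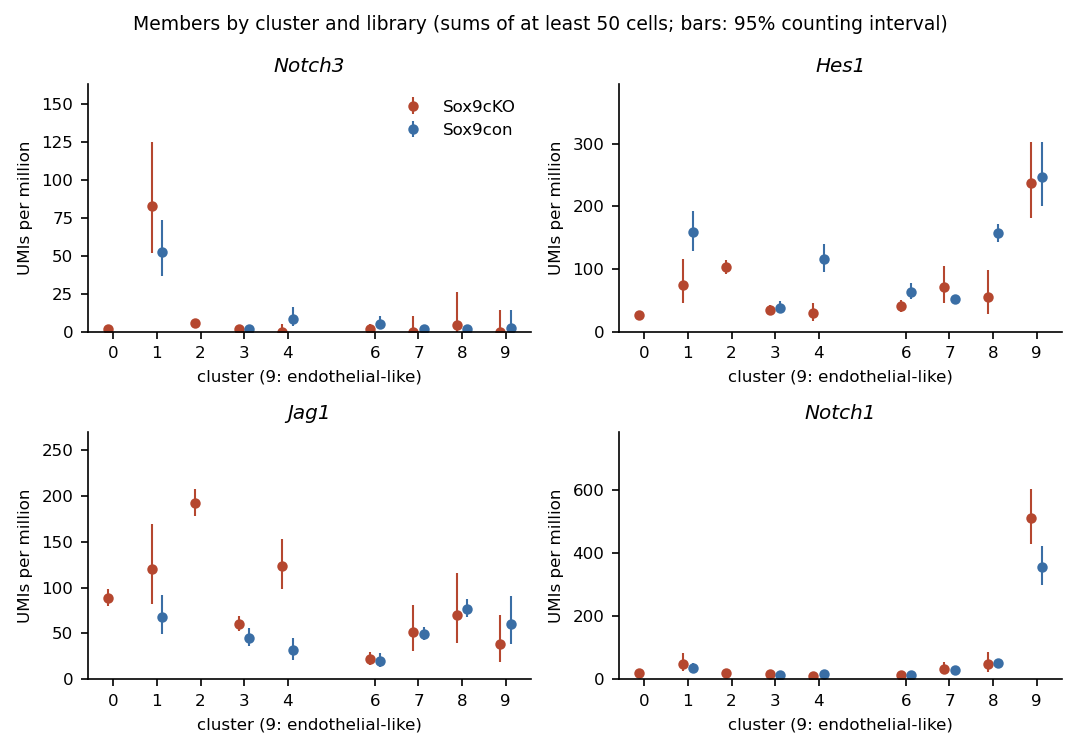
CPM of Notch3, Hes1, Jag1 and Notch1 by cluster for sums of at least 50 cells of the cKO-labelled (red) and control-labelled (blue) library, with 95% counting intervals; cluster 9 is endothelial-like. Notch3 is highest in cluster 1, Jag1 in cluster 2, and Notch1 in the endothelial-like cluster, and Hes1 is lower in cKO-labelled cells of clusters 1, 4, 6 and 8.

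Of the 48 other pathway genes, 28 reached 200 UMIs in the biliary fraction, and their median log2 ratio was 0.07 against -0.07 over all genes. In the cKO-labelled library 2 of the 28 were over the control by 2-fold or more, and 0 were under it by as much, against 2.22% and 1.77% of all genes. One is Dll1, a Delta-like ligand, with 34.9, 36.8, 44.0, 49.7 and 39.1 CPM in wells A11 to B3 against 18.4, 14.8, 16.5 and 23.1 in D9 to D12. Every cKO-labelled well was higher, and the log2 ratio was 1.16 (0.93 to 1.39) from 40.9 against 18.3 CPM. The other is Neurl1a, a ubiquitin ligase that acts on ligands, with 16.9 against 6.33 CPM and a log2 ratio of 1.41 (1.04 to 1.80). Its cKO-labelled wells spanned 9.43 to 20.4 CPM and its control-labelled wells 4.23 to 8.58.

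Next came the coactivator Maml2, at 2141 against 1391 CPM (log2 ratio 0.62). With Dll1 and Neurl1a, the proteases Adam10 (log2 ratio 0.33) and Adam17 (0.20), Mib1 (0.21) and Maml2 were higher in all 20 well pairs, 6 of 28 in all against 7.65% of all genes, and 0 of 28 were lower in all 20 against 8.23%. The lowest 3 were Psen2 at -0.43 (-0.74 to -0.11), Pofut1, which adds O-fucose to the receptors, at -0.27 (-0.56 to 0.03), and Dtx3, a Deltex ligase, at -0.19 (-0.51 to 0.13). Within the 6 shared clusters Dll1 was higher beyond counting error in 2, and in cluster 4 it stood at 155 against 29.4 CPM. Neurl1a was higher in 3 of the 6. At an equal mix of clusters the log2 ratios were 0.96 for Dll1, 0.93 for Neurl1a and 0.27 for Maml2, while Psen2 (-0.10, -0.55 to 0.35) and Adam17 (0.18, -0.01 to 0.37) were no longer beyond counting error. None of the 7 other Hes and Hey genes reached 200 UMIs, and Hes3 and Hes5 had 0 in both libraries.

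Within single biliary cells, Hes1 followed Notch1 beyond counting error in the control-labelled library alone and not at every depth, and did not follow Jag1. All shares are for cells thinned to 2000 UMIs, which left out 140 and 566 shallower biliary cells. In the control-labelled library, Hes1 was detected in 20.1% (14.0 to 27.5) of 149 cells with a Notch1 UMI and in 12.1% (10.9 to 13.4) of 2656 cells without, a ratio of 1.66, or 1.46 at an equal mix of clusters. In the cKO-labelled library the shares were 10.2% (4.78 to 18.5) of 88 cells and 8.40% (7.31 to 9.58) of 2382, which did not differ beyond counting error. The ratio in the control-labelled library was 1.0975 at 1000 UMIs per cell, or 0.95 at an equal mix of clusters.

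For Notch2 the control-labelled shares were 14.95% (12.4 to 17.8) of 709 cells with a UMI and 11.7% (10.4 to 13.2) of 2096 without, intervals that overlap. Overlap of separate intervals does not show that the shares are equal. The cKO-labelled shares were 8.74% of 709 cells and 8.35% of 1761. For Jag1 they were 13.8% of 247 cells against 12.4% of 2558 (control-labelled) and 9.20% of 348 against 8.34% of 2122 (cKO-labelled). For none of these 3 genes was the Hes1 share at least 1.5 times as high in both libraries. Of 9335 genes, 2.13% had such a share in cells with Notch1, 0.375% in cells with Notch2 and 1.81% in cells with Jag1.

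Nrarp was too sparse to follow at this depth. It was seen in 15 of 709 cKO-labelled cells with Notch2 (2.12%) and 30 of 1761 without (1.70%), in 6 of 348 with Jag1 (1.72%) and 39 of 2122 without (1.84%), and in 0 of 88 with Notch1, which allows up to 4.11% by the exact interval. In endothelial-like cells, Hes1 was found in 11 of 30 cells with Notch1 and 4 of 26 without in the cKO-labelled library (36.7% and 15.4%), and in 16 of 41 and 12 of 35 in the other (39.0% and 34.3%). Intervals of each pair overlap. Notch2 and Jag1 were not found together beyond counting error: at 2000 UMIs Jag1 was in 13.1% of cells with Notch2 and 14.5% of cells without (cKO-labelled), and in 9.17% and 8.68% (control-labelled). With Notch1 and without it, Jag1 was in 10.2% and 14.2% of cKO-labelled cells and in 12.1% (7.32 to 18.4) and 8.62% (7.58 to 9.75) of control-labelled cells, again with overlapping intervals. With Notch3, the shares rest on 5 of 17 cells (29.4%) and 4 of 30 (13.3%), against 14.0% and 8.76% of cells without. At 4000 UMIs per cell the control-labelled shares with and without Notch1 were 25.5% (17.6 to 34.6) and 16.2% (14.0 to 18.7).

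**Figure D4:**
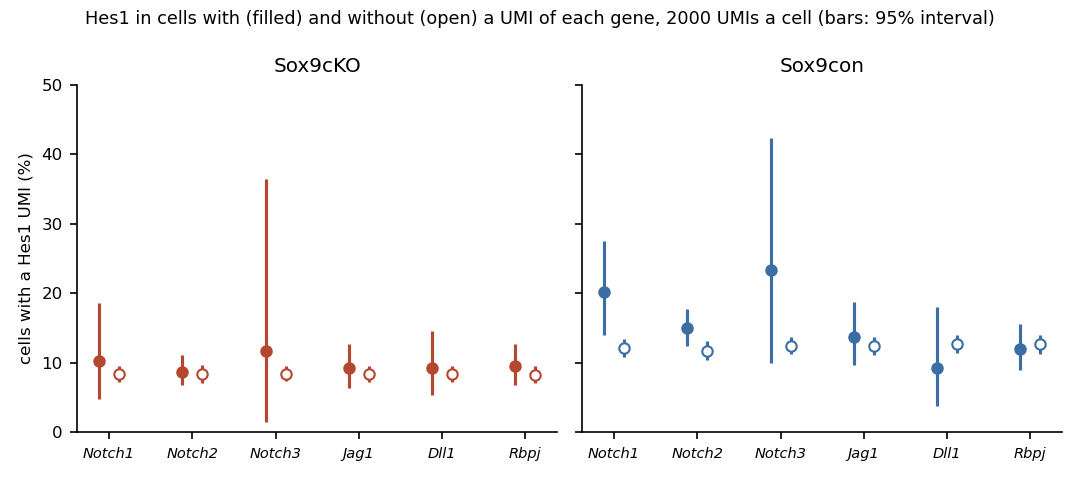
Percent of biliary cells with a Hes1 UMI among cells with (filled) and without (open) a UMI of each gene on the x axis, at 2000 UMIs per cell, in the cKO-labelled (left) and control-labelled (right) library, with exact 95% intervals. The one pair of intervals without overlap is for Notch1 in the control-labelled library, 20.1% against 12.1%.

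Across the 14 cluster-by-library sums of biliary cells, Hes1 had Pearson correlations of 0.56 with Notch1, 0.50 with Notch2, 0.08 with Jag1 and -0.64 with Dll1 on log2(CPM + 10). Nrarp had 0.60 with Jag1, 0.51 with Dll1 and -0.19 with Notch1. These are descriptions over points that share libraries and depth. The genes most like Notch1, Notch2, Hes1 and Rbpj were ranked the same way over 16 sums of at least 30 cells, which add the endothelial-like cells of both libraries. Notch1 was closest to Gla, Garre1 and Prkd2 (0.97 each), and Notch2 to Map7 (0.98), a microtubule-binding protein, Map3k5 and Dsg2 (0.95 each). The endothelial-like sums, where Notch1 was far higher and Notch2 lower, can carry these values by the class contrast alone. No ranking without them is given. Hes1 was closest to Man2a1 (0.88), a Golgi mannosidase, and to Phlpp1 and Sgk1 (0.87 each), a phosphatase and a kinase. Rbpj was closest to Slc7a2 (0.88), an amino acid transporter, Tab3 (0.86) and AI506816 (0.84).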

How the data were processed

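UMIs were counted per cell and gene in 1 Sox9cKO and 1 Sox9con library. The authors deposited raw UMI counts as whole numbers, with gene and cell tables, per the file headers. The genome is mg39 per the file headers and GRCm39 per the submitters' processing notes. The cell table also holds expected counts scaled by the authors to a fixed duplication, per the file headers, which were not used. The aligner, annotation release, use of strand and choice of cells are not given in the sources used here.

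Cells with at least 500 genes, 1000 UMIs and at most 15% mitochondrial UMIs were kept, which removed 27 and 115. Scrublet marked 3 of 6362 cells (0.0472%), too few to have worked, and these were removed. Clustering used scanpy 1.11.5 (2000 variable genes, 30 principal components, 15 neighbours, Leiden resolution 0.5, no integration). A cluster took the name of the class of which it held most markers (as a share, at 50 CPM, 3 or more needed), unless its 10 leading genes lacked that class and each stood 6 or more log2 units over other cells.

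CPM is a gene's UMIs per 1000000 UMIs of all genes in the same library and class. Sums have exact Poisson intervals, shares exact binomial (Clopper-Pearson) intervals and ratios exact conditional binomial intervals, all at 95%. Of these, only the ratio intervals were tested on simulated data, which held counting error alone. Well pair ratios had 0.5 counts added, and whether wells of a library hold the same animal is not stated. Ratios at an equal mix of clusters are Mantel-Haenszel ratios with intervals from a normal approximation of the log ratio. Counts between libraries took genes of 200 UMIs or more in both together. Alternatives used edgeR 4.0.16 (TMM) and DESeq2 1.42.0 factors on the 2 summed libraries, other filters, depths and cell sets, and left out each well.

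Named were all 10 genes, pathway genes at least 2-fold apart, the 3 highest and 3 lowest log2 ratios of that list, those at least 2-fold higher in endothelial-like cells with 20 UMIs there, and the 3 genes most like each member with 200 UMIs or more (those for Jag1 are not reported here). The 10 genes and the lists were chosen with earlier results of these data known.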

Additional observations from a re-analysis of the deposited data

How the results depend on the processing

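No log2 ratio of at least 2-fold as reported changed sign under an alternative, among those recomputed. Ratios under 2-fold were not judged by this rule, nor were share ratios, which have no sign. Of the smaller ratios between libraries, Jag1, Hes1, Rbpj and Notch3 kept their sign, and Notch1, Notch2, Jag2, Hey1 and Lfng changed it under some alternative. Between the classes, Jag1 in the control-labelled library moved from 0.22 to -3.82 and Rbpj in the cKO-labelled one from -0.67 to 0.25. Between libraries, 1 of the 10 genes was at least 2-fold higher, in place of 0, with TMM factors, with DESeq2 size factors, without well D9, with a minimum of 100 UMIs and with no minimum, and 1 was at least 2-fold lower over shared clusters only. The count of genes at least 2-fold lower (165) became 92 with DESeq2 factors, 386 without well D9, 258 over shared clusters, 269 at 100 UMIs and 4651 with no minimum. That of genes at least 2-fold higher (207) became 104 in thinned cells, 118 over shared clusters and 3980 with no minimum. Among the other pathway genes, 1 was higher in thinned cells and 1 lower with no minimum. DESeq2 factors moved the median of all genes from -0.07 to 0.08 and TMM factors to 0.03; with the former, Jag1 was at 1.081 and Hes1 at -0.66. Members at least 2-fold lower in endothelial-like cells numbered 2 (Jag1 added) with the highest Scrublet scores removed, in thinned cells and without endothelial-like cells that held a biliary marker. At 1000 UMIs per cell the Hes1 share ratio was 1.0975 for Notch1 in the control-labelled library and 1.51 for Notch2 in the cKO-labelled one. Alternatives for shared clusters and mesenchymal markers were chosen after seeing the data. No paired analysis was possible because each genotype has 1 library. Depth limits Notch3, Jag2, Hey1, Nrarp and Lfng, each under 200 UMIs.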
